A study of Homo sapiens with 12 samples.

Results

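Histone-modifying enzymes were followed across 4 treatments of VCaP, a long-established line of human prostate cancer cells whose growth depends on androgen and in which the promoter of TMPRSS2 is joined to ERG. The genes were chosen by symbol alone: those whose names start with KDM, KMT, KAT, SETD, HDAC, SIRT, PRMT or EZH and a member number or letter, with a probe called present (detection p under 0.05) by 3 or more of the 12 arrays. Of 73 such symbols on the array 59 passed, out of 11414 genes tested in all. They comprised 14 KDM, 6 KMT, 8 KAT, 9 SETD, 9 HDAC, 5 SIRT, 6 PRMT and 2 EZH genes. The 14 that did not pass were HDAC5, HDAC10, KDM1B, KDM4D, KDM5C, KMT2D, KMT5C, PRMT7, PRMT8, SETD7, SIRT3, SIRT6 and 2 long noncoding RNAs named after a neighbouring enzyme gene, KDM7A-DT and KMT2E-AS1. KDM5D is Y-linked, so it is counted in the totals and its level is not given.

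These enzymes write and erase chemical marks on the tails of histones. Lysine acetyltransferases (KAT) add acetyl groups, which mostly accompany active transcription, and deacetylases (HDAC, and the NAD-dependent SIRT) remove them. Lysine methyltransferases (KMT, SETD, EZH) and demethylases (KDM) set and remove methyl groups that, depending on the lysine, mark active or silent chromatin, and the PRMT enzymes methylate arginine. Some carry the family name but act mainly on other proteins: SETD3 methylates a histidine of actin, SETD6 is known for the NF-kB subunit RELA, and PRMT3 for a ribosomal protein. In prostate cells the androgen receptor, once bound by its hormone, recruits several of these enzymes to its target genes, among them KAT2B (PCAF), KAT5, KDM1A and KDM4C.

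Cells grown in complete medium received for 24 h either 0.1 nM dihydrotestosterone (DHT, an androgen), 10 µM enzalutamide (an antagonist of the androgen receptor) together with 100 nM dexamethasone (a synthetic glucocorticoid), 10 µM enzalutamide alone, or the vehicle DMSO. Each group was 3 cultures, described in the labels as biological replicates, with 1 array per culture. No batch is named in the labels. All cultures were of the same line, there was no group with dexamethasone alone, and the complete medium itself can hold hormone. Expression was read as the brightness of Illumina BeadChip probes, so levels below are normalized log2 intensities of 1 probe per gene, in order of replicate, and are comparable between arrays for a gene but not between genes. The number of arrays limits the precision.

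Vehicle replicate 3 stood apart from the other arrays: its mean intensity was 199, against 271 to 344 on the other 11, and 33.5% of its probes were detected, against 35.7% to 38.8%. Ranks of probes detected on no array divided the arrays into sets of 6 (set 1: replicates 1 and 2 of DHT and vehicle and replicate 1 of the enzalutamide groups; set 2: the rest). Within a set most comparisons have an arm of 1 array, and in set 2 the lone vehicle array is replicate 3. Androgen target genes moved with the labels. FKBP5, a steroid-induced chaperone, changed by 2.39 ± 0.09 with DHT against vehicle, by -0.96 ± 0.09 with enzalutamide against vehicle and by 1.36 ± 0.09 with the combination against enzalutamide (log2 change ± SE, n = 3 arrays per group; adjusted p by limma at most 2.44e-04). TMPRSS2, a protease gene, changed by 1.49 ± 0.08 with DHT and by -0.49 ± 0.08 with enzalutamide, and KLK3 (prostate-specific antigen) by 1.02 ± 0.11 with DHT. Of the 11 luminal prostate markers 9 had probes, all of them kept, and KLK3 was not detected on the 3 enzalutamide arrays. Basal, stromal, immune and endothelial marker lists had 1, 1, 1 and 2 kept genes: DST, ACTA2, CD14, and PECAM1 with VWF. ACTA2 and CD14 were detected on all 12 arrays, DST on 4, PECAM1 on 3 and VWF on 4. The stromal gene COL1A1 and the immune gene PTPRC were not kept. With DHT 7 of the 9 luminal markers rose and 0 fell, 1 of 4 neuroendocrine markers rose and 2 fell, ACTA2 rose by 0.65 and VWF by 0.49, and CD14 changed by -0.87 and the basal gene by 0.28 (the last not past the threshold). Their part in the enzyme changes was not tested. In bulk RNA, fewer cells with a transcript and less transcript per cell cannot be told apart.

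The promoters of the 3 genes whose changes recur most in the results are shown first, so that their base composition can be seen. Each run is 300 bases of the gene's strand in GRCh38.p14, from 250 bases before to 50 after the start annotated by RefSeq, with GC boxes (GGGCGG or its reverse complement CCGCCC) in capitals. KAT2B lies at chr3:20040196-20040495 (plus strand), KAT2A at chr17:42121318-42121617 (minus strand) and KDM7A at chr7:140176934-140177233 (minus strand).
KAT2B: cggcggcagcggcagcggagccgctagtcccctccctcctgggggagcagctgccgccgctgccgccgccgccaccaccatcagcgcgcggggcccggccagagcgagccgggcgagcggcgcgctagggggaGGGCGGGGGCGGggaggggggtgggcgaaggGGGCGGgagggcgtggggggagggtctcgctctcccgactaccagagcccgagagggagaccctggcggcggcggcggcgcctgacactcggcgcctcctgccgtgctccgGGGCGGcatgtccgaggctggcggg
KAT2A: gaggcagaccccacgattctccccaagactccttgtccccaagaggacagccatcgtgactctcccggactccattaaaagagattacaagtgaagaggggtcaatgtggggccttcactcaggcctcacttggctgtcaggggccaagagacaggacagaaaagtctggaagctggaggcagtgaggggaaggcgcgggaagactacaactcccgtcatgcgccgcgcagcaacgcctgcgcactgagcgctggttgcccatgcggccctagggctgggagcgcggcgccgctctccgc
KDM7A: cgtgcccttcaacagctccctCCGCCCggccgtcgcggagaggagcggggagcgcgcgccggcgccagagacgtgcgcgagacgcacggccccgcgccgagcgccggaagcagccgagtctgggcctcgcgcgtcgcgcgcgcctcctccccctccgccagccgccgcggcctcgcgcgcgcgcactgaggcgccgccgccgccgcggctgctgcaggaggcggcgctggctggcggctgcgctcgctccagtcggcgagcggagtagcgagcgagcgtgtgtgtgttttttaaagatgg
The KAT2B run held 4 GC boxes and was 80.3% G and C, the KAT2A run held none and was 62.0%, and the KDM7A run held 1 and was 77.0%. RefSeq promoters were found for 55 of the 59 genes. Searched on either strand, GC boxes stood in 37 of the 55 (67.3%), against 44.6% of all 27305 promoters in the table, CCAAT in 18 (32.7%, against 35.7%) and TATAAA in 0 (against 12%). The half-site of the androgen and glucocorticoid receptors, AGAACA or TGTTCT, stood in 2, those of HDAC4 and HDAC9 (3.64%, against 14.9%), and the full element, AGAACA followed after 3 bases by TGTTCT, in 0 (against 0.00366%). A match is a run of letters and not a bound site, and the window does not cover enhancers, where steroid receptors mostly bind. The half-site overlaps the full element by construction. The median G and C content was 66.3% for these promoters and 58.3% for all. The enzymes were kept for detection in these cells and the table of all promoters was not filtered, so these comparisons are between unlike sets.

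With DHT, 12 of the 59 enzyme genes changed (20.3%): 8 rose and 4 fell, against 23.5% of all genes tested. The median change over the 59 was 0.11, against 0.01 over all genes, and the changes ran from -0.64 to 1.21. The groups did not overlap for 22 of the 59 (37.2% of all genes). Unadjusted p was under 0.05 for 20 of the 59, against 4003 of all 11414 genes. Calls are limma results at adjusted p under 0.05 over the 11414 genes. Scaling the arrays by their medians in place of quantiles moved the median of all genes to 0.16 in this comparison, and the members' calls became 4 higher and 0 lower (all genes 987 higher and 225 lower, against 1374 and 1309). The rises and falls described below are therefore both relative to the other genes. The shift was not limited to DHT: with this scaling the median of all genes was 0.13 for enzalutamide and 0.21 for the combination against vehicle. It was 0.03 for DHT and 0.07 for the combination against enzalutamide. Its cause was not tested. The heat map of all enzymes shows the 4 treatments side by side.

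**Figure D1:**
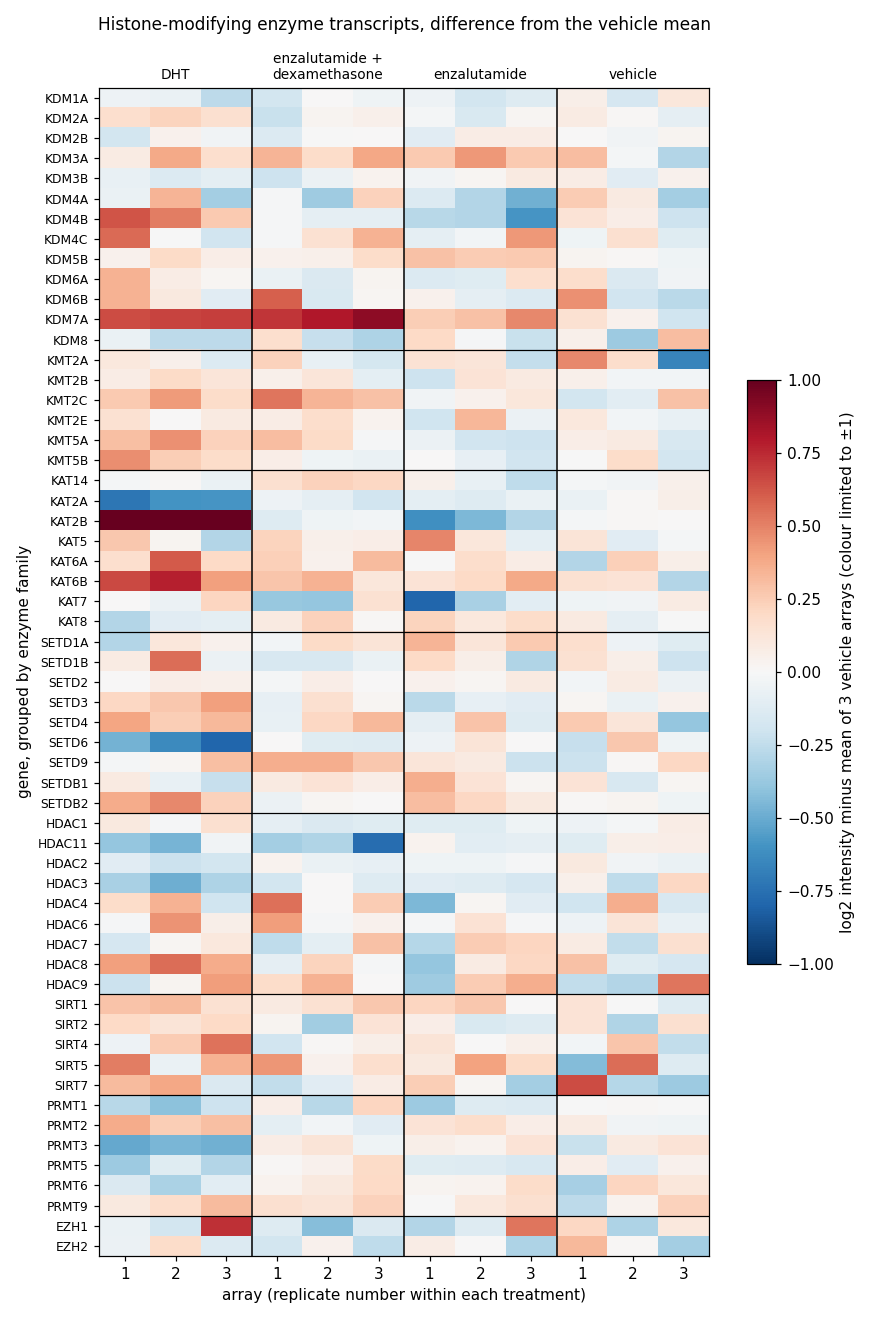
Each row is an enzyme gene (58, grouped by family) and each column an array. Colour is the log2 intensity minus the mean of the 3 vehicle arrays, red higher and blue lower, limited to ±1. The KAT2B row is darkest on the 3 DHT arrays (about 1.21 above vehicle on average), the KDM7A row is red under DHT and under the combination, and the KAT2A, SETD6 and PRMT3 rows are blue on the DHT arrays. Vehicle replicate 3 departs from the other vehicle arrays in several rows, among them KMT2A.

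Among the acetyltransferases 2 rose and 1 fell of 8 with DHT, and the KAT family held the largest change in either direction. KAT2B, a coactivator acetyltransferase that can join the SAGA and PCAF complexes, stood at 9.52, 9.67 and 9.62 on the DHT arrays, 8.26, 8.34 and 8.36 with enzalutamide plus dexamethasone, 7.77, 7.94 and 8.09 with enzalutamide, and 8.37, 8.40 and 8.39 with vehicle. The lowest DHT array was thus above every other array, and the enzalutamide arrays were below all the rest. DHT raised KAT2B by 1.21 ± 0.09 (2.32-fold, adjusted p 2.52e-06), the 50th highest change of the 11414. The change was 1.18 to 1.25 with each array left out and 1.21 within the first technical set (2 DHT and 2 vehicle arrays). In the second set, which holds 1 DHT array and vehicle replicate 3, the 2 arrays differed by 1.22.

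KAT2A (GCN5), the close paralogue of KAT2B that competes with it for a place in SAGA, went the other way. It stood at 8.19, 8.31 and 8.32 with DHT, 8.86, 8.82 and 8.72 with the combination, 8.81, 8.78 and 8.84 with enzalutamide, and 8.84, 8.92 and 8.97 with vehicle. The DHT arrays were the 3 lowest of the 12 and the other treatments overlapped one another. It fell by 0.64 on the log2 scale with DHT (SE 0.07, adjusted p 8.46e-05), and by 0.63 within the first technical set. With median scaling the change was -0.39 and its adjusted p 0.242.

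KAT6B, a MYST-family acetyltransferase, was dim: 5.54, 5.66 and 5.29 with DHT, 5.16, 5.23 and 4.99 with the combination, 5.02, 5.08 and 5.26 with enzalutamide, and 5.03, 5.02 and 4.59 with vehicle, where 2 of the 3 arrays detected it. All DHT arrays were above all others. It rose by 0.62 ± 0.14 with DHT (adjusted p 0.00626), between 0.47 and 0.72 with each array left out. The size of this dim gene's change depended on the processing: KAT6B rose by 0.21 without background correction and by 0.32 with an offset of 50, and passed under each. KAT6A, its paralogue and the brightest KAT probe, changed by 0.33 ± 0.15 (adjusted p 0.138), and KAT5 (TIP60), an acetyltransferase known as an androgen receptor cofactor, by 0.00 ± 0.16.

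Of the 14 lysine demethylases 2 rose with DHT and 0 fell. The family median was 0.11. KDM7A, a JmjC demethylase of repressive histone marks, stood at 6.50, 6.52 and 6.54 with DHT, 6.56, 6.65 and 6.74 with the combination, 6.09, 6.14 and 6.33 with enzalutamide, and 6.0, 5.89 and 5.65 with vehicle. Its vehicle arrays were the 3 lowest and its enzalutamide arrays came next. DHT raised it by 0.67 ± 0.10 (1.59-fold, adjusted p 5.02e-04), and by 0.57 to 0.75 with each array left out. Over the other processing settings the KDM7A rise ran between 0.30 (no background correction) and 0.78 (median scaling).

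KDM4B, a JmjC demethylase acting on repressive lysine marks, stood at 6.81, 6.69 and 6.44 with DHT, 6.17, 6.09 and 6.09 with the combination, 5.90, 5.89 and 5.59 with enzalutamide, and 6.32, 6.25 and 5.97 with vehicle. The DHT arrays were the 3 highest, and the enzalutamide arrays the 3 lowest. It rose by 0.46 ± 0.12 with DHT (adjusted p 0.0181). The call was lost without DHT replicate 1, DHT replicate 2 or vehicle replicate 3, and the change lay between 0.36 and 0.57 over all 12 omissions of 1 array.

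The demethylases best known as androgen receptor partners did not pass. KDM1A (LSD1) changed by -0.12 ± 0.10 with DHT (adjusted p 0.402), KDM3A by 0.21 ± 0.14 (adjusted p 0.317) and KDM4C by 0.13 ± 0.19 (adjusted p 0.698). KDM4C was detected on 5 of the 12 arrays, so its changes are loosely measured. KDM2A, the brightest KDM probe, changed by 0.19 ± 0.09 (adjusted p 0.166). No KDM gene that missed the threshold moved by more than 0.21 in either direction.

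The lysine methyltransferases were divided. Of 6 KMT genes 1 rose and 0 fell with DHT, with a family median of 0.21 and 6 of 6 changes at or above 0.01. KMT5A (SET8), which places the first methyl group on a histone lysine tied to mitosis, stood at 8.12, 8.28 and 8.05 with DHT, 8.13, 8.01 and 7.81 with the combination, 7.76, 7.63 and 7.61 with enzalutamide, and 7.89, 7.91 and 7.66 with vehicle. DHT arrays were above vehicle arrays but overlapped the combination. The change of 0.34 ± 0.11 (adjusted p 0.0391) kept its call with 6 of the 12 arrays left out in turn. It lost it without DHT replicates 1 or 2, vehicle replicates 1 or 3, or replicate 2 of either enzalutamide group. KMT5B, which adds further methyl groups to the same lysine, changed by 0.30 ± 0.11 (adjusted p 0.0649), with 0.03 at each of its 2 other probes. KMT5B passed with the technical set as a block (adjusted p 0.0234), with a stricter probe filter, with an offset of 50, without background correction and with a mean-variance trend (adjusted p 0.0162 to 0.042).

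Of the 9 SETD genes 2 rose and 1 fell with DHT. SETDB2, a methyltransferase that places a repressive histone mark, stood at 7.50, 7.61 and 7.36 with DHT, 7.07, 7.15 and 7.13 with the combination, 7.44, 7.34 and 7.23 with enzalutamide, and 7.14, 7.16 and 7.09 with vehicle. The combination and vehicle arrays filled the same narrow range, below every DHT and enzalutamide array. Its change with DHT was 0.36 ± 0.08 (adjusted p 0.00904). Its relative SETDB1 changed by -0.07 ± 0.11 (adjusted p 0.722).

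SETD6 stood at 6.71, 6.54 and 6.39 with DHT, 7.18, 7.06 and 7.05 with the combination, 7.13, 7.31 and 7.18 with enzalutamide, and 6.95, 7.45 and 7.14 with vehicle. The 3 DHT arrays were the lowest of the 12. It fell by 0.63 on the log2 scale with DHT (SE 0.12, adjusted p 0.00302). SETD3, the actin-directed member and the brightest SETD probe, stood at 10.21, 10.27 and 10.41 with DHT, 9.92, 10.16 and 10.02 with the combination, 9.73, 9.92 and 9.89 with enzalutamide, and 10.02, 9.94 and 10.05 with vehicle, a rise of 0.29 ± 0.09 (adjusted p 0.0351). Its groups were close, and the SETD3 call was lost without DHT replicates 2 or 3 or any vehicle replicate. It was also lost as the mean of its probes. Its second probe, detected on 9 arrays, changed by 0.24 ± 0.20.

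EZH2, the catalytic subunit of Polycomb repressive complex 2 and the enzyme of this group most studied in prostate cancer, was at 5.67, 5.91 and 5.59 with DHT, 5.54, 5.77 and 5.47 with the combination, 5.80, 5.73 and 5.42 with enzalutamide, and 6.05, 5.74 and 5.39 with vehicle. The 4 groups overlapped throughout, and vehicle alone spanned the range of the others. The EZH2 change with DHT was 0.00 ± 0.16 (adjusted p 0.998, 95% interval -0.36 to 0.36), and its second probe changed by -0.28 ± 0.23. EZH1 was detected on 3 of 12 arrays.

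**Figure D2:**
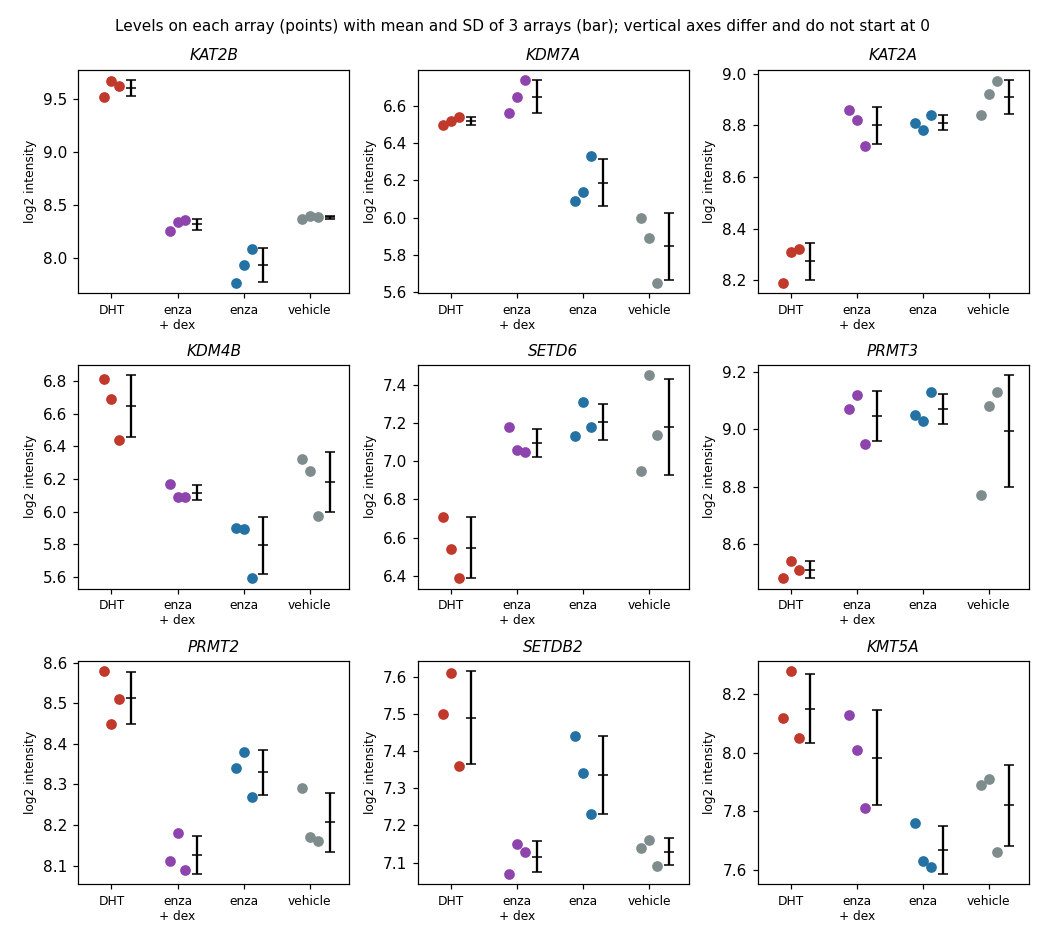
Points are the log2 intensities of the 3 arrays of each treatment for 9 enzyme genes, and black bars the mean and SD; vertical axes differ between panels and do not start at 0. KAT2B, KDM4B, PRMT2 and SETDB2 had their highest means with DHT, KAT2A, SETD6 and PRMT3 their lowest, and KDM7A was highest with enzalutamide plus dexamethasone (mean 6.65).

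Among the arginine methyltransferases 1 rose and 1 fell of 6 with DHT. PRMT3 stood at 8.48, 8.54 and 8.51 with DHT, 9.07, 9.12 and 8.95 with the combination, 9.05, 9.03 and 9.13 with enzalutamide, and 8.77, 9.08 and 9.13 with vehicle. The DHT arrays lay in a narrow band below all others, and vehicle replicate 1 was the nearest to it. PRMT3 fell by 0.48 on the log2 scale (SE 0.10, adjusted p 0.00363).

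PRMT2, known as a coactivator of nuclear receptors, stood at 8.58, 8.45 and 8.51 with DHT, 8.11, 8.18 and 8.09 with the combination, 8.34, 8.38 and 8.27 with enzalutamide, and 8.29, 8.17 and 8.16 with vehicle. Every DHT array was above every other array. The rise with DHT was 0.31 ± 0.07 (adjusted p 0.0102), 0.31 ± 0.08 at a second PRMT2 probe and 0.14 ± 0.24 at another. As the mean of its probes PRMT2 did not pass with DHT. PRMT5, the main enzyme of symmetric arginine methylation, changed by -0.25 ± 0.09 (adjusted p 0.0547), with -0.27 ± 0.08 at its other probe. PRMT5 passed with a stricter probe filter, an offset of 50, no background correction or a mean-variance trend, in the authors' table and as the mean of its probes (adjusted p 0.0155 to 0.0465).

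Of 9 HDAC genes 1 fell and 0 rose with DHT, and of 5 sirtuins 0 passed (limma; unadjusted p under 0.05 for 1). HDAC3, the catalytic subunit of the NCoR and SMRT corepressor complexes, stood at 8.19, 8.03 and 8.21 with DHT, 8.33, 8.52 and 8.39 with the combination, 8.40, 8.39 and 8.35 with enzalutamide, and 8.57, 8.26 and 8.72 with vehicle. DHT arrays were lowest, though vehicle replicate 2 was close to them. The HDAC3 fall of 0.38 (a change of -0.38 ± 0.11, adjusted p 0.028) lost its call without DHT replicates 1 or 2 or vehicle replicates 1 or 3, and the change lay between -0.51 and -0.28 over all omissions of 1 array. HDAC1, a class I deacetylase and the brightest HDAC probe, changed by 0.08 ± 0.07 (adjusted p 0.491) and SIRT1 by 0.25 ± 0.10 (adjusted p 0.0931). The 5 sirtuins had changes between 0.18 and 0.26, with SIRT4, SIRT5 and SIRT7 detected on only 3, 8 and 6 of the 12 arrays. Other kept SIRT5 probes changed by -0.21 ± 0.15 and 0.39 ± 0.14.

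The sizes of several DHT changes depended on the processing. Without background correction KDM4B changed by 0.23, SETD6 by -0.36 and SETDB2 by 0.23, each past the threshold. In a fit of only the groups compared HDAC3, KDM4B, KMT5A, PRMT2 and SETD3 did not pass. With median scaling KMT5A changed by 0.57, PRMT2 by 0.56, SETD3 by 0.52, SETDB2 by 0.57, PRMT3 by -0.25 and HDAC3 by -0.14, and none of these 6 passed. The SETD6 fall also lost its call with median scaling (adjusted p by limma 0.171).

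**Figure D3:**
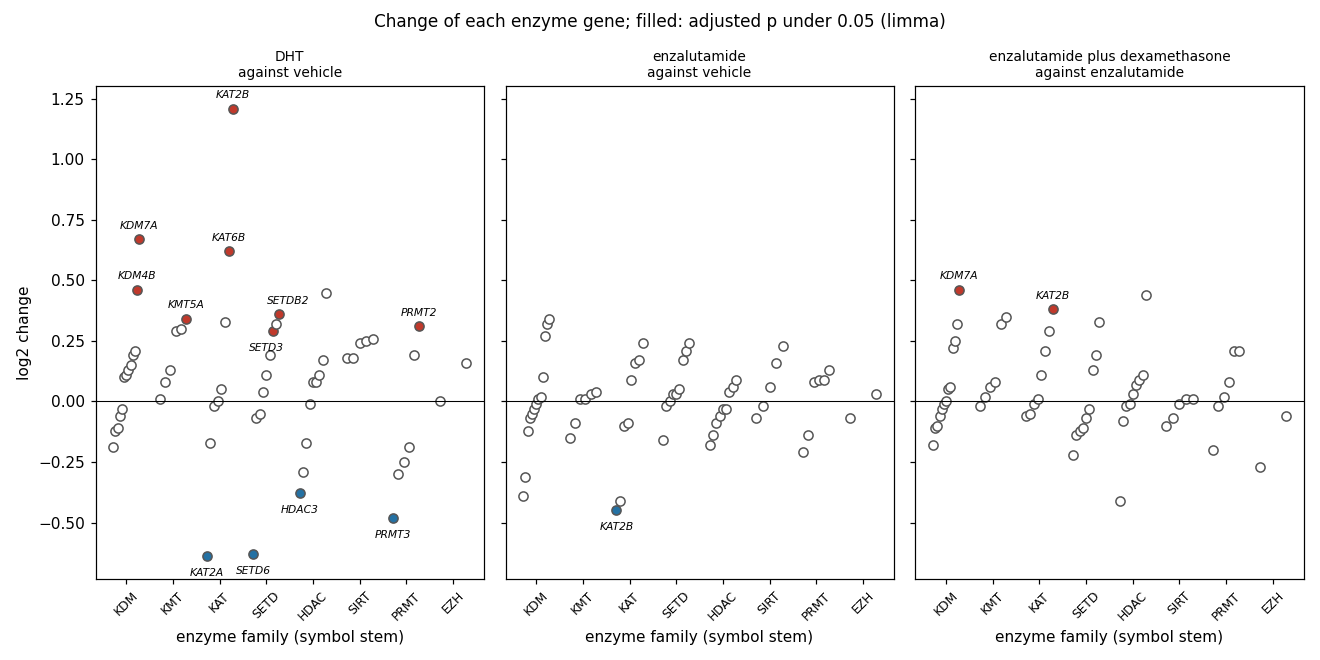
Each point is 1 enzyme gene, placed by family along the horizontal axis and by log2 change on the vertical axis, for DHT against vehicle, enzalutamide against vehicle and enzalutamide plus dexamethasone against enzalutamide. Filled points passed adjusted p under 0.05, red for rises and blue for falls. The DHT panel holds 12 filled points over 6 of the families, and the other panels hold 1 and 2.

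Enzalutamide, which blocks the receptor that DHT activates, changed 1 of the 59 enzyme genes against vehicle (1.69%), against 2.19% of all genes. The median change was 0.01 over the enzymes and 0.01 over all genes. Unadjusted p was under 0.05 for 7 of the 59 enzymes, against 1810 of all 11414 genes. The gene was KAT2B, which fell by 0.45 on the log2 scale (SE 0.09, adjusted p 0.0202), with its 3 enzalutamide arrays below its 3 vehicle arrays. This KAT2B call was lost without any 1 of the vehicle arrays or of enzalutamide replicates 1 and 2, with median scaling, and in a fit of only the groups compared, while the change stayed between -0.53 and -0.37 with each array left out and was -0.29 with median scaling. KDM4B changed by -0.39 ± 0.12 (adjusted p 0.147), KDM7A by 0.34 ± 0.10 (adjusted p 0.114) and KDM3A by 0.32 ± 0.14 (adjusted p 0.287). The KDM4B and KDM7A groups did not overlap, as for 10 of the 59 members in this comparison (20.1% of all genes).

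Dexamethasone in the presence of enzalutamide raised 2 of the 59 against enzalutamide alone (3.39%) and lowered 0, against 4.10% of all genes. The enzyme median was 0.01, against 0.00 over all genes. Unadjusted p was under 0.05 for 13 of the 59, against 1823 of all 11414 genes. KDM7A rose by 0.46 ± 0.10 (1.38-fold, adjusted p 0.0241) and KAT2B by 0.38 ± 0.09 (1.31-fold, adjusted p 0.0299), with the combination arrays above the enzalutamide arrays in each case. Both calls rest on few arrays, and neither gene passed with median scaling. In a fit of only the groups compared KDM7A passed and KAT2B did not. The KDM7A rise was 0.22 without background correction. KDM7A lost its call without enzalutamide replicates 1 or 2 or combination replicates 2 or 3. KAT2B lost its call without enzalutamide replicates 1 or 2 or any combination replicate. KMT5A (0.32 ± 0.11, adjusted p 0.143), KDM4B (0.32 ± 0.12, adjusted p 0.217) and PRMT5 (0.21 ± 0.09, adjusted p 0.246) had groups that did not overlap and missed the threshold, as 13 of the 59 had such groups (23.5% of all genes).

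Set against vehicle, enzalutamide plus dexamethasone left 1 of the 59 enzyme genes changed (1.69%), against 1.37% of all genes, with medians of 0.02 and 0.01. Unadjusted p was under 0.05 for 6 of the 59 enzymes, against 1464 of all 11414 genes. KDM7A was higher by 0.80 ± 0.10 (1.74-fold, adjusted p 0.00275), the 15th highest change of the 11414 genes. The KDM7A change was 0.70 to 0.88 with each array left out, and it kept its call each time. It was 0.37 without background correction and 0.95 with median scaling. Within the technical sets it was 0.61 and 1.05 and did not pass, where the combination is a single array in set 1 and vehicle is replicate 3 alone in set 2. In a fit of only these 6 arrays its adjusted p was 0.0525. KAT2B was at -0.07 ± 0.09 (adjusted p 0.796), KDM4B at -0.07 ± 0.12 (adjusted p 0.875) and KAT2A at -0.11 ± 0.07 (adjusted p 0.593) in the same comparison. Groups did not overlap for 8 of the 59 (17.4% of all genes).

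DHT against enzalutamide, which sets the agonist against the antagonist, changed 11 of the 59 (18.6%), 7 higher and 4 lower, against 31.1% of all genes. The groups did not overlap for 24 members (45.1% of all genes). The median change was 0.10 over the enzymes and 0.00 over all genes. This comparison shares its DHT arrays with DHT against vehicle and is no separate evidence for the genes it repeats. KAT2B differed by 1.67 ± 0.09 (3.18-fold, adjusted p 8.01e-08) and KDM4B by 0.85 ± 0.12 (1.81-fold, adjusted p 2.69e-04). KMT5A (0.49), SETD3 (0.45), KMT5B (0.39) and KDM7A (0.33) were also higher, and SETD6 (-0.66), PRMT3 (-0.56) and KAT2A (-0.54) lower. Their adjusted p ranged up to 0.0262, for KDM7A. This KDM7A call was lost without any 1 DHT array or enzalutamide replicates 1 or 2, and with no background correction (0.16), median scaling or a mean-variance trend. Without background correction KDM4B differed by 0.39 and SETD6 by -0.37, and SETD3 differed by 0.28, without passing, as the mean of its probes.

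HDAC8, KAT8 and KMT5B passed in this comparison alone, which does not show that they differ in it from the others. HDAC8, a class I deacetylase, stood at 5.36, 5.51 and 5.32 with DHT and 4.56, 5.03 and 5.16 with enzalutamide (0.48 ± 0.16, adjusted p 0.0417), a dim probe that DHT also moved by 0.45 ± 0.16 against vehicle (adjusted p 0.0665). The HDAC8 call was lost without any 1 DHT array, enzalutamide replicates 1 or 2 or combination replicate 3. It was also lost without background correction (0.17), without a probe filter, with median scaling, a mean-variance trend or only the groups compared. The HDAC8 probe was detected on 3 DHT, 2 enzalutamide, 1 combination and 1 vehicle arrays. KAT8 (MOF), an acetyltransferase of histone H4, stood at 6.20, 6.38 and 6.40 with DHT and 6.72, 6.60 and 6.68 with enzalutamide (-0.34 ± 0.09, adjusted p 0.0124), and its call was lost without DHT replicate 1. KAT8 differed by -0.17 without background correction. KMT5B had 2 other probes, which changed by 0.22 ± 0.09 and 0.16 ± 0.13, and its call was lost without DHT replicate 1 or enzalutamide replicate 3. With median scaling 3 members were called, 2 higher and 1 lower.

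Responses to the glucocorticoid and to the androgen were compared by subtracting the second from the first. Dexamethasone was measured as the combination against enzalutamide, and DHT against vehicle, on different arrays. Dexamethasone was thus given with the antagonist and DHT without it. The steroid, the receptor blockade and the starting level differ together, so a call cannot be assigned to the steroid alone. The changes differed for 5 of the 59 (8.47%), 2 positive and 3 negative, against 8.41% of all genes. The median difference was -0.07 over the enzymes and -0.01 over all genes. KAT2B rose by 0.38 ± 0.09 with dexamethasone and by 1.21 ± 0.09 with DHT, a difference of -0.83 ± 0.12 (adjusted p 0.00176). KAT2A changed by -0.01 ± 0.07 with dexamethasone and by -0.64 ± 0.07 with DHT, a difference of 0.63 ± 0.10 (adjusted p 0.00333). These were the largest differences among the enzymes in each direction, and with median scaling 0 of the 5 passed.

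SETDB2 and PRMT2 had changes of opposite sign: SETDB2 changed by -0.22 ± 0.08 with dexamethasone and by 0.36 ± 0.08 with DHT (difference -0.58 ± 0.12, adjusted p 0.0111), and PRMT2 by -0.20 ± 0.07 and 0.31 ± 0.07 in the same order (difference -0.51 ± 0.10, adjusted p 0.0106). For both, the combination arrays lay below the enzalutamide arrays without overlap, although the dexamethasone change alone missed the threshold (adjusted p 0.209 for SETDB2 and 0.178 for PRMT2). Mean SETDB2 was 7.13 with vehicle, 7.34 with enzalutamide and 7.12 with the combination, and mean PRMT2 was 8.21, 8.33 and 8.13. Their falls with dexamethasone thus started from an enzalutamide mean above vehicle and ended near the vehicle mean. The other PRMT2 probes changed by -0.07 ± 0.08 and -0.11 ± 0.24 with dexamethasone, and the PRMT2 difference did not pass as the mean of its probes. The SETDB2 difference was -0.37 without background correction. PRMT5, at 9.19, 9.22 and 9.37 with the combination, 9.06, 9.05 and 9.02 with enzalutamide, 8.82, 9.06 and 8.89 with DHT and 9.25, 9.07 and 9.22 with vehicle, differed by 0.47 ± 0.12 (adjusted p 0.0375). The PRMT5 call held without DHT replicate 2 or vehicle replicate 2 and was lost without any other array.

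KDM7A rose by 0.46 ± 0.10 with dexamethasone and by 0.67 ± 0.10 with DHT. The difference of -0.21 ± 0.14 did not pass (adjusted p by limma 0.437, 95% interval in the fit -0.52 to 0.10), which does not show that the changes were equal. For KAT6B (-0.61 ± 0.19, adjusted p 0.0744), SETD6 (0.52 ± 0.18, adjusted p 0.0946) and PRMT3 (0.46 ± 0.14, adjusted p 0.0625) the difference missed the threshold, although their dexamethasone changes were 0.01, -0.11 and -0.02. Across the 58 enzyme genes with levels given, which share their arrays, the dexamethasone and DHT changes had a Pearson correlation of 0.36 and a Spearman correlation of 0.28. These were 0.20 and 0.21 over the 56 without KAT2B and KDM7A, and 0.32 and 0.26 over all genes.

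**Figure D4:**
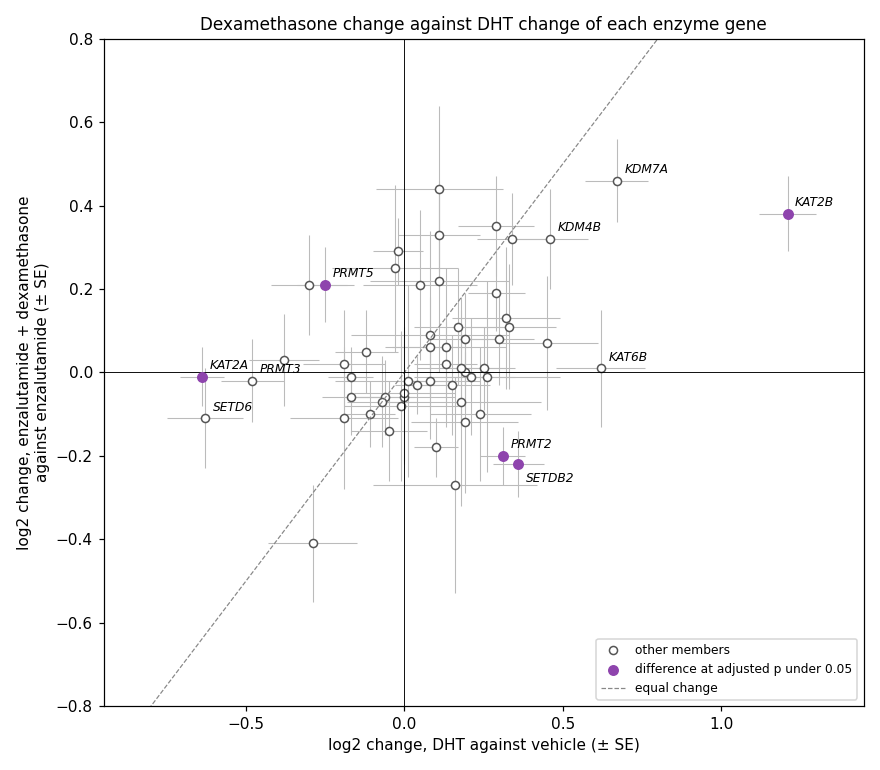
Each point is 1 of 58 enzyme genes, with the log2 change for DHT against vehicle on the horizontal axis and for enzalutamide plus dexamethasone against enzalutamide on the vertical axis, with SE bars. The dashed line marks equal change, and filled points are the 5 genes whose changes differed at adjusted p under 0.05. KAT2B lies far to the right at 1.21 with a dexamethasone change of 0.38, and KAT2A to the left at -0.64 on the level of no dexamethasone change.

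The partners and relatives of these enzymes outside the 8 name families were counted in lists chosen with earlier results of these data known. The background for the DHT counts is the 23.5% of all genes called. With DHT, 2 of 8 other acetyltransferases rose (HAT1 by 0.36 and NAA60 by 0.30, list median 0.25), and 2 of 28 subunits of acetyltransferase complexes rose (median 0.07). Those were SUPT20H (0.58 ± 0.18) and TADA3 (0.41 ± 0.11), structural subunits of the SAGA-type complexes that hold KAT2A or KAT2B. Of 24 deacetylase complex subunits 7 rose and 5 fell (median 0.06), with HMG20B (0.81, a subunit of the CoREST complex), MBD2 (0.79, a reader of methylated DNA) and MTA1 (-0.60, a NuRD subunit) the furthest.

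Of 16 other methyltransferases 3 fell with DHT and 0 rose (median -0.11). SMYD2 (-0.60) and SMYD3 (-0.48) were 2 of them, and MECOM, not detected on any DHT array, was at least 1.15-fold lower (adjusted p 8.06e-05). JMJD6, a JmjC oxygenase, was the 1 of 5 other demethylases that rose, by 0.57 ± 0.12, with a list median of 0.04. Among 21 Polycomb partners 2 rose and 3 fell (median -0.03), led by CBX2 (-0.67), a reader of the mark that EZH2 writes, then PCGF2 (0.45) and EED (0.43), a core partner of EZH2. Among 13 COMPASS partners, which work with the KMT2 and SETD1 enzymes, 3 rose and 3 fell (median 0.01), with PSIP1 (-0.57), HCFC2 (0.45) and PAXIP1 (-0.42) the furthest.

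Several of the enzymes, EZH2, KMT5A and PRMT5 among them, are known to be tied to cell division, so DNA replication genes were counted beside them. With DHT 17 of 22 fell (list median -0.63; 23.5% of all genes were called in either direction), led by MCM2 (-1.48 ± 0.09), MCM4 (-1.35 ± 0.08) and MCM5 (-1.08 ± 0.11), subunits of the replicative helicase. The part of cell division in the enzyme changes was not tested. With enzalutamide 8 of 22 fell against vehicle (median -0.39; 2.19% of all genes called), led by GINS2 (-0.88), CDC45 (-0.78) and MCM4 (-0.69), and with the combination 6 of 22 rose against enzalutamide (median 0.21; 4.10% of all genes called), led by GINS2 (0.78), CDC45 (0.72) and MCM10 (0.53). The dexamethasone and DHT changes differed for 16 of 22, all positive (median 0.92; 8.41% of all genes called). EZH2 changed by 0.00 ± 0.16 with DHT, and its other changes were -0.07 ± 0.16 with enzalutamide and -0.06 ± 0.16 with the combination against enzalutamide.

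The other 7 lists held few calls outside the DHT comparisons. MECOM was higher with enzalutamide by 0.44 ± 0.07 (adjusted p 0.0104) and lower with the combination against enzalutamide (-0.41 ± 0.07, adjusted p 0.00765), and limma called no other gene of these lists in those comparisons, where unadjusted p was under 0.05 for 0 to 4 genes per list. With the combination against vehicle 0 genes of the 8 lists passed (unadjusted p under 0.05 for 0 to 4 per list). The difference between the dexamethasone and DHT changes passed for CBX2 (0.70), PAXIP1 (0.49) and 5 deacetylase complex subunits, the furthest being HMG20B (-0.68), TBL1X (0.58) and GPS2 (-0.58). DHT against enzalutamide, with the DHT arrays shared, moved 4 higher and 0 lower of the 8 other acetyltransferases, 0 and 4 of the 16 other methyltransferases, 1 and 0 of the 5 other demethylases and 2 and 3 of the 21 Polycomb partners. It moved 3 higher and 2 lower of the 13 COMPASS partners, 6 and 5 of the 24 deacetylase partners, 3 and 2 of the 28 acetyltransferase partners and 1 and 10 of the 22 replication genes, against 31.1% of all genes called in either direction.

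Apart from the changes above, the much studied enzymes named above did not pass in the other comparisons. KDM1A changed by -0.12 ± 0.10 with enzalutamide and by 0.05 ± 0.10 with the combination against enzalutamide, KDM4C by 0.10 ± 0.19 and 0.06 ± 0.19, KAT5 by 0.16 ± 0.16 and -0.05 ± 0.16, and SETDB1 by 0.17 ± 0.11 and -0.07 ± 0.11. HDAC1 changed by -0.09 ± 0.07 and -0.02 ± 0.07, HDAC3 by -0.14 ± 0.11 and 0.03 ± 0.11, and SIRT1 by 0.16 ± 0.10 and 0.01 ± 0.10 in the same comparisons. The adjusted p of these changes was 0.466 or more. With the combination against vehicle the lowest adjusted p among the 10 much studied enzymes was 0.383 (KDM3A, 0.31 ± 0.14), and with DHT against enzalutamide it was 0.0977 (HDAC1, 0.18 ± 0.07). A p that misses the threshold does not show that levels were equal.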

How the data were processed

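Labelled cRNA of 12 VCaP cultures, 3 per treatment, was hybridized to Illumina BeadChips. The deposited intensity of a probe is the mean over its beads, not normalized between arrays, exported by GenomeStudio per the submitters' processing notes (version not stated) and, with a range of 66.1 to 18955, without background subtracted. Detection p-values, deposited beside them, move in steps that fit 770 negative controls. The deposited number of beads per probe described the arrays only. The authors' processed intensities, on a linear scale with 29.4% to 29.5% below 0, were an alternative after adding 42.5 and taking log2.

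Intensities were background-corrected, quantile-normalized and log2-transformed by limma's neqc (version 3.58.1, R 4.3.3; offset 16; negative controls inferred from detection p-values). Of 47322 probes 20265 (42.8%) were detected at p under 0.05 on at least 3 arrays and kept. The platform annotation gave 30112 probes 1 symbol, 8 several and 17202 none; checked by gene identifier, 0 symbols changed. The kept probe with the highest mean stood for each gene (11414 genes, 2863 with several kept probes). A mean per group was fitted over all 12 arrays by lmFit and eBayes (8 residual degrees of freedom plus 3.77 prior ones). Tests were two-sided, and p-values were adjusted over all genes by Benjamini-Hochberg with a threshold of 0.05. The smallest p that an exact permutation of 3 against 3 arrays allows is 0.1. Where no array of a group detected a gene, its fold is a bound, taken against the lowest detected signal of each array or the gene's own signal if higher. The script was tested on simulated data for DHT against vehicle, where it recovered 89.4% of genes changed by 1, 64.2% by 0.6 and 7.5% by 0.3 (log2). There were 5 false calls. The simulation changed 67, 67 and 66 of 11414 genes by 0.3, 0.6 and 1, a smaller share than the 23.5% called in the data. Recovery depends on that share, so these percentages do not measure the sensitivity in the data.

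The members, gene lists and tests were chosen with earlier results of these data known. Genes are named by rule. Members past the threshold with groups that do not overlap (up to 10 each way) and the brightest probe of each family were named. So were a fixed set (KDM1A, KDM3A, KDM4C, EZH2, HDAC1, HDAC3, KAT5, PRMT5, SETDB1, SIRT1) in each comparison, and up to 3 genes per list. KMT2A, EZH1, HDAC4, HDAC9, SIRT4, SIRT5, SIRT7, KDM6B and KDM8 were named after their values were seen. Same-numbered arrays of different groups had deviations correlated at -0.08 to 0.22 over 18 pairs. For arrays of other numbers this was -0.21 to 0.12 over 36 pairs, and 11 arrays correlated best with their own number. These values do not exclude pairing by number. No batch is named in the labels, and the main fit did not take replicate numbers as pairs. Alternatives were other probe filters, no background correction, an offset of 50, median scaling, the authors' table, the mean of a gene's probes, a fit of only the groups compared, a mean-variance trend, the replicate number or technical set as a block, each technical set alone, and leaving out each array. Promoters are RefSeq's in GRCh38.p14.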

Additional observations from a re-analysis of the deposited data

Results flagged for a closer look

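The response to dexamethasone on top of enzalutamide differed from the response to DHT, by the interaction contrast of the fit, for 5 enzyme genes. KAT2B differed by -0.83 and SETDB2 by -0.58, KAT2A by 0.63, PRMT2 by -0.51 and PRMT5 by 0.47 (log2, adjusted p 0.00176, 0.0111, 0.00333, 0.0106 and 0.0375 by limma). Within the technical sets the KAT2B difference was -0.72 and -0.89, each resting on 1 array against 1 in one of its 2 parts, so these are values and no test. The share of enzymes that differed, 8.47%, was close to the 8.41% of all genes.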

How the results depend on the processing

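Of 32 called changes of single enzymes, 6 kept their call under every alternative run for them other than leaving out an array or taking a technical set alone (11 alternatives, 10 for KAT6B, which a stricter filter removed: KAT2B with DHT against either group, KDM7A and KAT6B with DHT against vehicle, KDM4B and SETD6 with DHT against enzalutamide), 20 kept it with each array left out, and 0 changed sign in any setting. In the order DHT against vehicle, enzalutamide against vehicle, combination against enzalutamide, DHT against enzalutamide, combination against vehicle and the difference, the numbers of members called were 12, 1, 2, 11, 1 and 5. Leaving out 1 array in turn gave 9 to 13, 0 to 1, 0 to 2, 7 to 12, 1 to 2 and 4 to 6. Median scaling gave 4, 0, 0, 3, 1 and 0, and moved the median of all genes by up to 0.21 (combination against vehicle). Fitting only the groups compared gave 7 for DHT against vehicle, 0 for enzalutamide against vehicle, 1 for the combination against enzalutamide and 0 against vehicle. No background correction, a mean-variance trend and the replicate number as a block each gave 2 for enzalutamide against vehicle, and the block moved no other count of members by over 1.5 times. With it HDAC8 (DHT against enzalutamide) and PRMT5 (the difference) did not pass and KMT5B (DHT against vehicle) did, at adjusted p 0.0333. Of the 12 arrays 11 correlated best with their own number, a hint from the data only. Within technical set 1, DHT against vehicle (2 arrays each) called 4 members, against 9.79% of all genes. Within set 2, the combination against enzalutamide (2 arrays each) called 0 members, against 0.298% of all genes. The other comparisons within a set have an arm of 1 array, so their counts are not given. Set 2 holds 1 DHT and 1 vehicle array. The cause was not tested for the other settings. Over all genes, median scaling called 1212 genes for DHT against vehicle, 1486 for DHT against enzalutamide, 109 for the combination against enzalutamide, 87 for the combination against vehicle and 177 for the difference, against 2683, 3546, 468, 156 and 960. Calls for the combination against vehicle were 19 with only the groups compared and 239 to 292 with a stricter filter, an offset of 50, no background correction or the trend. Calls for enzalutamide against vehicle were 250, against 51 with median scaling, 55 with only the groups compared, 405 with a stricter filter, 475 without background correction and 479 with the trend. Without 1 array the calls over all genes were 48 (without combination replicate 2) to 141 for the combination against vehicle, 125 (without enzalutamide replicate 3) to 235 for enzalutamide against vehicle, and 279 (without combination replicate 2) to 491 for the combination against enzalutamide. For DHT against vehicle the share of all genes called without 1 array was 18.4% to 22.8%. For DHT against enzalutamide it was 24.9% to 32.4%, and for the difference 5.90% to 7.56%. Signal over background limits the dim probes, among them EZH1, KDM4C, KDM6B, KDM8, SIRT4 and HDAC8.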
